A study of Mus musculus with 5 samples.

Results

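The 10 genes described here encode the NFAT transcription factors Nfatc1, Nfatc2 and Nfatc3, the 5 NF-kB subunits Nfkb1, Nfkb2, Rel, Rela and Relb, and the NF-kB inhibitors Nfkbia and Tnfaip3. They were taken by name out of 22367 protein-coding genes, and each was given the called regions that overlapped its gene body extended by 20 kb on each side. These windows held 18 of 9135 Runx3-bound regions and 54 of 18992 H3K4me1-marked regions, and 0 regions were counted at more than 1 gene. ChIP-seq had been used to map Runx3, a transcription factor active in cytotoxic T and NK cells, together with the enhancer-associated histone mark H3K4me1. The cells were CD8-TC, that is CD8+ T cells, taken from spleens of wild-type ICR mice and isolated on anti-CD8 magnetic beads. The cells had been TCR-activated for 2 days with plate-bound anti-CD3e and soluble anti-CD28 and then grown for 4 days in 100 u/ml recombinant human IL-2. All 5 libraries came from cells treated in this way, 2 with a polyclonal anti-Runx3 antibody, 2 with non-immune serum (NIS) as control and 1 with a monoclonal anti-H3K4me1 antibody. Each antibody has 1 peak list, called on joined reads and without scores. There is therefore no spread between replicates and no test, and the 95% intervals given below follow Wilson's method and cover only the counting of regions.

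Engagement of the T cell receptor raises intracellular calcium, which activates the phosphatase calcineurin. Calcineurin removes phosphates from NFAT proteins, which then enter the nucleus and act on cytokine and effector genes, often beside AP-1. The same receptor, with CD28 and cytokine receptors, activates the IKK kinases, which cause the inhibitor encoded by Nfkbia to be degraded and free NF-kB dimers to enter the nucleus. NF-kB in turn activates genes of its own inhibitors, among them Nfkbia and Tnfaip3, whose products limit the response.

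The DNA under the Runx3-bound regions is shown for 8 of the 18 regions, chosen as those nearest the gene starts that held a RUNX motif, at genes other than Nfatc1. Each is the central 200 bp of a region in the mm9 build, written 5′ to 3′ on the strand of its gene. Regions are numbered from the 5′ end of each gene. Capitals mark RUNX motifs, which are TGTGGT or its variants TGTGGC and TGCGGT and TGCGGC on either strand. Motifs on the opposite strand appear as their reverse complements, such as ACCACA for the first of these.
Nfkb2 region 1, chr19:46378758-46378957, plus strand: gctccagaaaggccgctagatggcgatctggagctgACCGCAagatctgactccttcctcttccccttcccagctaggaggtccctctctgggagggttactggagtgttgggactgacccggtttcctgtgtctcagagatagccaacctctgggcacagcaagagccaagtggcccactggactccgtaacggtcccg
Nfkbia region 1, chr12:56593087-56593286, minus strand: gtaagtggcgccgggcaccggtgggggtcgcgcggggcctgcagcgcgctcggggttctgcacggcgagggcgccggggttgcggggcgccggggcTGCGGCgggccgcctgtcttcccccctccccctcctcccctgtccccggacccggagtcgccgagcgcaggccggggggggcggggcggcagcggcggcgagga
Nfkbia region 2, chr12:56589690-56589889, minus strand: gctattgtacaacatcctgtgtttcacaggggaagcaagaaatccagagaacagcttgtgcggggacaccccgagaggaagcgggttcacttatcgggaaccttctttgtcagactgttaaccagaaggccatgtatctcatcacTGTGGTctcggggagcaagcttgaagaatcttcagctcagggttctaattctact
Nfkb2 region 2, chr19:46383654-46383853, plus strand: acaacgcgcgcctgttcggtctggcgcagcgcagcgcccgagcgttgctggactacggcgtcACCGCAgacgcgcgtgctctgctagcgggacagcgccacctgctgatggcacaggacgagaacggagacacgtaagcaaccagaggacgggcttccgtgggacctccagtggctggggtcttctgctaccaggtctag
Nfkb1 region 1, chr3:135328802-135329001, minus strand: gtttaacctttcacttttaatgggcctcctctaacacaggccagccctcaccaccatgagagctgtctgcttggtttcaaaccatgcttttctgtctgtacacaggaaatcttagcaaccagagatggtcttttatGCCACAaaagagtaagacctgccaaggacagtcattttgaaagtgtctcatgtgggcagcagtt
Nfkb1 region 2, chr3:135325530-135325729, minus strand: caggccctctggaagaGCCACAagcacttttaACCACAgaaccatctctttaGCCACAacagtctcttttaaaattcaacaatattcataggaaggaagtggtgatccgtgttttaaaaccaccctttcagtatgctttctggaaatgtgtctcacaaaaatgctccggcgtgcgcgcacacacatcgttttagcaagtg
Nfatc2 region 2, chr2:168356924-168357123, minus strand: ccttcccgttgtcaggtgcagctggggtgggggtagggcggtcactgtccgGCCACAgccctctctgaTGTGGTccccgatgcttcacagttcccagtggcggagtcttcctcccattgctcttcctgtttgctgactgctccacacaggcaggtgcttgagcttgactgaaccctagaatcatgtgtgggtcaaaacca
Nfatc3 region 2, chr8:108664806-108665005, plus strand: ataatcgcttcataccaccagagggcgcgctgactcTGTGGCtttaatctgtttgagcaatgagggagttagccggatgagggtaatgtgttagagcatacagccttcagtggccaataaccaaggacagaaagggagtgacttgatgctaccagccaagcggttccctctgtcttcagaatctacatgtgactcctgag
The 200 bp shown for region 2 of Nfkb1 held 3 of the 5 RUNX motifs of that region. Their first bases are bases 17, 33 and 53 of the sequence, followed by overlapping ETS motifs that begin at bases 90 and 94. The motif shown for region 1 of Nfkbia lay in sequence of 82.5% GC, and the motif shown for region 1 of Nfkb1 lay in sequence of 45.5% GC.

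Runx3-bound regions lay at 7 of the 10 genes, and H3K4me1-marked regions lay at 8. For comparison, 34.2% of protein-coding genes had a Runx3-bound region in the same window and 39.3% had an H3K4me1-marked region. An H3K4me1-overlapping Runx3-bound region was found at 5 of the 10 genes, and at 17.8% of all protein-coding genes. The 10 genes differed widely. Nfatc1, Nfatc2 and Nfkb1 held 46 of the 54 H3K4me1-marked and 11 of the 18 Runx3-bound regions, whereas Rel, Rela and Tnfaip3 held H3K4me1 and no Runx3-bound region, and Nfkb2 and Relb held Runx3-bound regions and no H3K4me1. None of the 10 lacked both. The median gene of the 10 had 2 regions of each kind, and the median of all genes was 0 for each, with median windows of 66.3 and 55.4 kb.

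**Figure D1:**
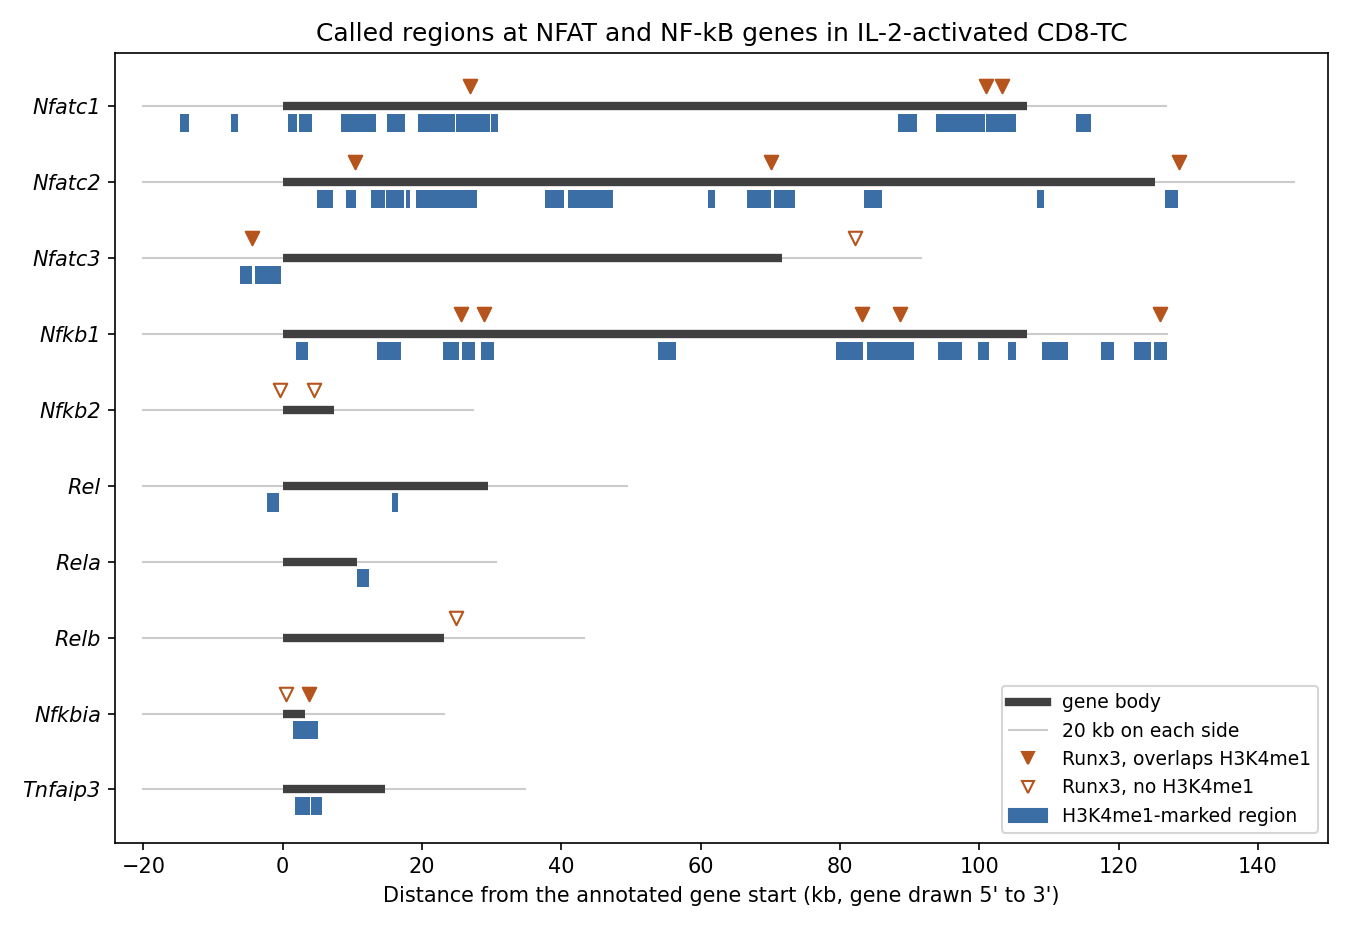
Map of called regions at the 10 genes, with distance from the annotated gene start in kb on the horizontal axis and each gene drawn 5′ to 3′ as a dark bar. Triangles are centres of Runx3-bound regions, filled where they overlap H3K4me1, and blue boxes are H3K4me1-marked regions at their true width; Nfatc1, Nfatc2 and Nfkb1 carry 46 of the 54 boxes, and Nfkb2 and Relb carry none.

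The NFAT genes were taken first. Nfatc1 is induced on T cell activation, and Nfatc2 is already present in resting T cells. Both lay in densely marked loci. Nfatc1 (ENSMUSG00000033016.9, chromosome 18, 80802944 to 80909810, minus strand) held 15 H3K4me1-marked regions that covered 40.7 kb, or 27.7% of its 147 kb window, and 0.72% of protein-coding genes were covered as densely. Nfatc2 (ENSMUSG00000027544.9, chromosome 2, 168301910 to 168427157, minus strand) also held 15, covering 39.5 kb or 23.9% of 165 kb. For comparison, 0.389% of genes had 15 or more H3K4me1-marked regions. These are also long genes, since 9.84% and 8.02% of genes had windows as long.

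Each of these 2 genes held 3 Runx3-bound regions, all 6 of which touched H3K4me1, and 5.42% of all genes had as many. Counted per 100 kb of window, 16.5% of all genes had as many as Nfatc1 and 19.9% as many as Nfatc2. In Nfatc1 region 1 (80882670 to 80883277, 608 bp) lay in intron 2, 26.84 kb into the gene, and touched 2 H3K4me1-marked regions that covered 96.1% of it. Regions 2 and 3 lay in intron 9, 100.94 and 103.25 kb into the gene. Region 2 (80808682 to 80809068) sat at a gap between 2 H3K4me1-marked regions, which began 78 and 165 bp from its centre. Region 3 (80806372 to 80806743) was covered entirely.

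At Nfatc2, region 1 (168416217 to 168417301) was wide, at 1085 bp, and intronic, centred at -0.894 kb relative to another annotated Nfatc2 start, with 65.3% of it marked. Region 2 (168356832 to 168357214) lay in intron 5 with 35.2% marked, and region 3 (168298324 to 168298669) lay 3241 bp past the end of the gene with 4.34% marked. The centres of regions 2 and 3 lay outside the mark. The widest H3K4me1-marked region at any of the 10 genes, 8863 bp (168399196 to 168408058), filled part of intron 1 of Nfatc2 and held no Runx3-bound region.

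Nfatc3, a further calcium-regulated NFAT member, had a sparser locus (ENSMUSG00000031902.8, chromosome 8, 108582740 to 108654437, plus strand). Its 2 H3K4me1-marked regions covered 4.87% of a 112 kb window, and both lay upstream of the gene, 1 of them (108578810 to 108582478, 3669 bp) ending 262 bp before the start. Region 1 of Runx3 (108577996 to 108578612), centred at -4.44 kb from the gene start, had 57.9% of its length in the other (108576583 to 108578352, 1770 bp). Region 2 (108664720 to 108665090) was unmarked and lay 10283 bp past the end of the gene, nearest to the start of AC133195.1. No Runx3-bound or H3K4me1-marked region touched the body of Nfatc3.

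Among NF-kB subunits, Nfkb1 held the most of both kinds. It encodes a precursor that is processed to a DNA-binding subunit without a transactivation domain. The locus (ENSMUSG00000028163.8, chromosome 3, 135247619 to 135354511, minus strand) held 5 Runx3-bound regions, and 1.04% of protein-coding genes had as many. Per 100 kb of window the locus held 3.4, and 7.1% of genes were as dense. It held 16 H3K4me1-marked regions, and 0.295% of genes had as many. The mark covered 40.5 kb or 27.6% of its 147 kb window, close to the 27.7% of Nfatc1, and all 5 Runx3-bound regions overlapped it.

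The Runx3-bound regions of Nfkb1 fell into 2 pairs and a single one. Regions 1 (135328347 to 135329455, 1109 bp) and 2 (135325350 to 135325909, 560 bp) were centred in introns 3 and 4, 25.61 and 28.88 kb into the gene. Regions 3 (135271004 to 135271730, 727 bp) and 4 (135265616 to 135266085, 470 bp) were centred in introns 12 and 16, 83.14 and 88.66 kb into the gene, and 0.08 and 0.91 kb from further annotated Nfkb1 starts. Region 1, the widest Runx3-bound region at the 10 genes, bridged 2 H3K4me1-marked regions with its centre 173 and 363 bp from them. Regions 2 and 4 lay wholly inside the mark, region 4 within the second widest marked region of the set (135263916 to 135270651, 6736 bp). Region 5 (135228333 to 135228787) was also wholly marked, but it lay 18832 bp past the end of Nfkb1 in an intron of Manba, a lysosomal enzyme gene, so its count at Nfkb1 rests on the 20 kb limit.

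Nfkb2 encodes the precursor of the non-canonical pathway, and Relb encodes the subunit that pairs with its product. Neither had a called H3K4me1-marked region within 20 kb, the nearest being 81.7 kb from Nfkb2 and 53.1 kb from Relb. Nfkb2 (ENSMUSG00000025225.7, chromosome 19, 46379227 to 46386580, plus strand) nevertheless held 2 Runx3-bound regions in a short window of 47.4 kb, or 4.22 per 100 kb, and 4.65% of genes were as dense. By number alone, 13.6% of genes had as many. Region 1 (46378502 to 46379213, 712 bp) ended 14 bp before the gene start. Region 2 (46383641 to 46383865) was the narrowest of the 18, at 225 bp, and was centred in coding exon 14. At Relb (ENSMUSG00000002983.9, chromosome 7, 20191566 to 20214787, minus strand) the single Runx3-bound region (20189552 to 20190133) lay 1433 bp past the end of the gene and was centred at -0.025 kb relative to the start of Clasrp, so that the count for Relb comes from the start of its neighbour.

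Rel and Rela encode the subunits with transactivation domains that act in the canonical pathway, and neither had a Runx3-bound region within 20 kb. The nearest were 75.0 kb from Rel and 65.2 kb from Rela, and both overlapped H3K4me1. Rel (ENSMUSG00000020275.8, chromosome 11, 23641514 to 23670970, minus strand) held an H3K4me1-marked region of 1735 bp (23671439 to 23673173) 469 bp upstream of its start and a narrower one of 975 bp in intron 3. Rela (ENSMUSG00000024927.6, chromosome 19, 5637483 to 5648130, plus strand) held 1 of 1858 bp (5648090 to 5649947), which touched its 3′ end.

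The 2 inhibitor genes differed. Nfkbia encodes the protein that holds NF-kB dimers in the cytoplasm, and Tnfaip3 encodes a ubiquitin-editing enzyme that ends signalling upstream of IKK. Nfkbia (ENSMUSG00000021025.7, chromosome 12, 56590398 to 56593634, minus strand) had the densest Runx3 calls of the 10 genes, 2 regions in 43.2 kb or 4.63 per 100 kb, and 3.34% of genes were as dense. Its window is short, and 13.6% of genes had 2 or more Runx3-bound regions. Region 1 (56592674 to 56593699, 1026 bp) spanned the gene start and was centred in intron 1 with no mark on it. Region 2 (56589593 to 56589986, 394 bp) lay 412 bp past the end of the gene, wholly within an H3K4me1-marked region of 3620 bp (56588498 to 56592117) over the 3′ part of the gene. Tnfaip3 (ENSMUSG00000019850.5, chromosome 10, 18720716 to 18735463, minus strand) held 2 H3K4me1-marked regions over introns 1 and 2, 2161 and 1687 bp wide (18731490 to 18733650 and 18729762 to 18731448), and no Runx3-bound region.

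The 20 kb limit decided some of these counts. The Runx3-bound regions farthest from their gene but inside it were region 5 of Nfkb1 at 18832 bp and region 2 of Nfatc3 at 10283 bp. The nearest outside lay 23.6 kb from Nfkbia (56566351 to 56566803), 25.2 kb from Nfatc1 (80934984 to 80935338), 32.7 kb from Relb and 35.6 kb from Tnfaip3 (18684517 to 18685075). Of these, the ones near Nfkbia, Nfatc1 and Tnfaip3 overlapped H3K4me1 and the one near Relb did not.

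**Figure D2:**
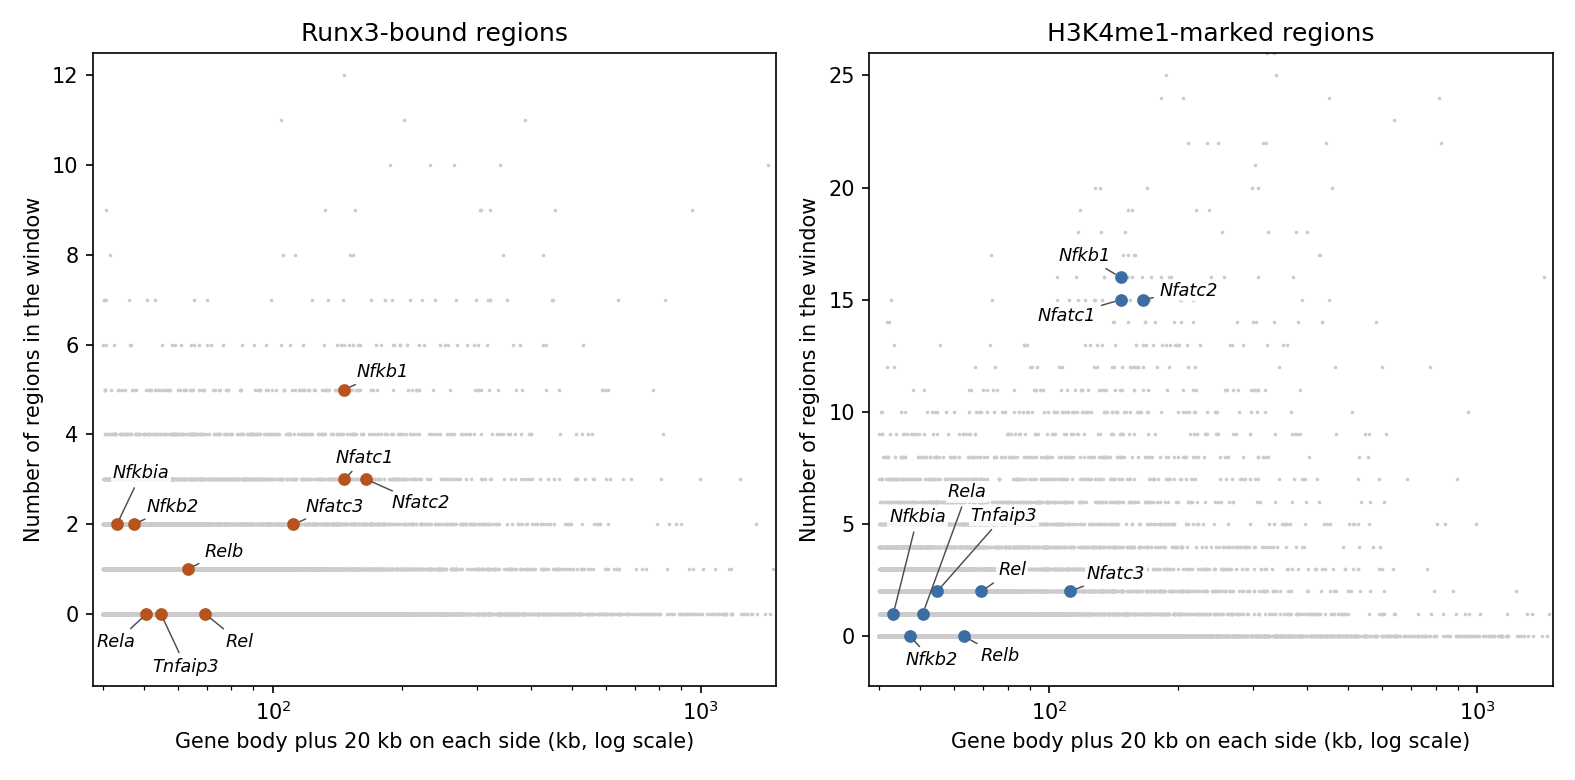
Number of Runx3-bound (left) and H3K4me1-marked (right) regions per gene window against window length in kb on a log axis, with all protein-coding genes in grey and the 10 genes in colour. Nfkb1 has 5 and 16, and Rel, Rela and Tnfaip3 lie at 0 on the left; 16 genes on the left and 20 on the right fall outside the plotted range.

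Next it was asked how often the Runx3-bound regions of these genes lay in H3K4me1-marked chromatin. They did so in 13 of 18 cases (72.2%, interval 49.1 to 87.5%), against 57.3% of all Runx3-bound regions, which lies inside that interval. The share was 7 of 8 at the NFAT genes (87.5%, interval 52.9 to 97.8%) and 6 of 10 at the NF-kB genes (60.0%, interval 31.3 to 83.2%), and these intervals overlap. By gene, 3 of 3 were marked at Nfatc1, 3 of 3 at Nfatc2 and 5 of 5 at Nfkb1. The counts were 1 of 2 at Nfatc3 and at Nfkbia, 0 of 2 at Nfkb2 and 0 of 1 at Relb. The intervals take regions of 1 locus as independent, so the 2 groups cannot be told apart from their single loci. Of the 13 marked regions, 4 had a centre outside the mark (30.8%, interval 12.7 to 57.6%), against 19.3% over the whole list. Touching 2 H3K4me1-marked regions at once was seen for 3 of the 13 (23.1%, interval 8.18 to 50.3%), against 13.1%.

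Read the other way, 15 of the 54 H3K4me1-marked regions held a Runx3-bound region (27.8%, interval 17.6 to 40.9%), close to the 29.2% of the whole list. The count was 8 of 32 at the NFAT genes and 7 of 22 at the NF-kB genes. At Nfatc1, Nfatc2 and Nfkb1, 11 of 15, 12 of 15 and 10 of 16 marked regions held no Runx3-bound region, as did most of the whole list. Marked regions separated by short gaps are counted singly here, and merging those closer than 1 kb turned the 54 into 35. The marked regions had an intronic centre, inside a transcript and in no annotated exon, in 42 of 54 cases (77.8%, interval 65.1 to 86.8%), against 56.4% of the list. The windows were drawn around genes and 46 of the 54 regions lay at 3 long ones, and the part of this in the share was not tested. Their median width was 1982 bp, against 1592 bp for the list. Runx3-bound regions had a median width of 515 bp, against 521 bp for the list.

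**Figure D3:**
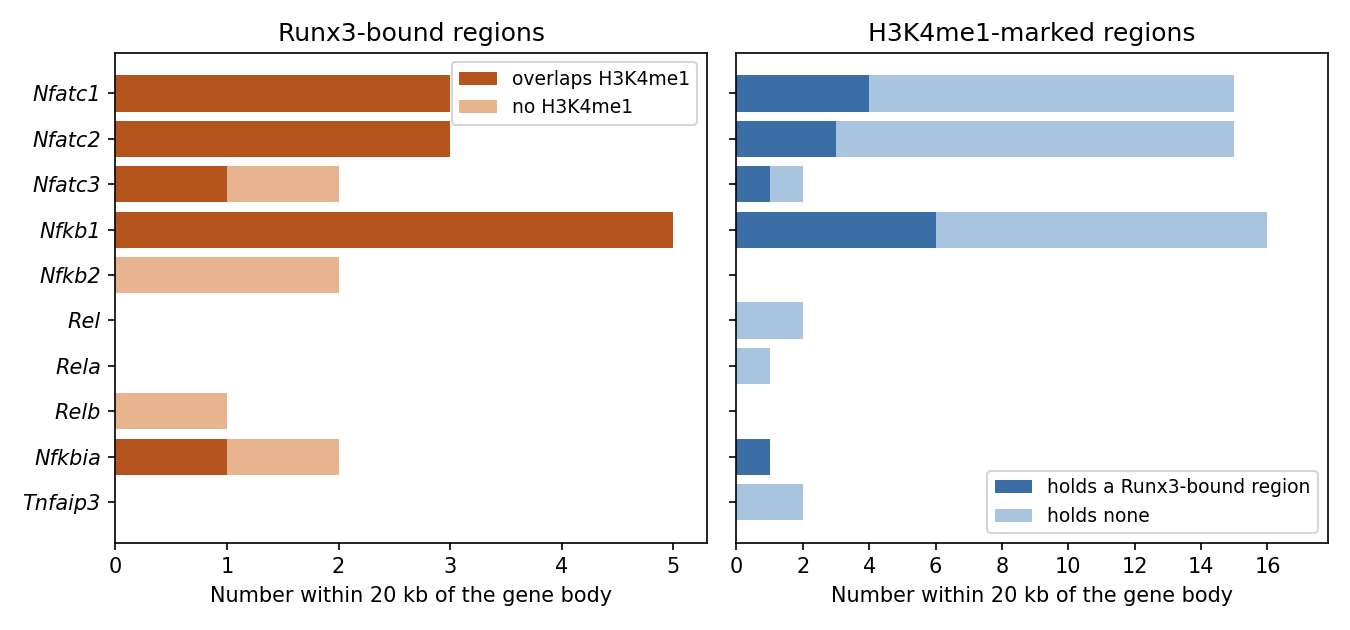
Bars give the number of Runx3-bound regions (left, split by overlap with H3K4me1) and of H3K4me1-marked regions (right, split by whether they hold a Runx3-bound region) within 20 kb of each gene body. All Runx3-bound regions of Nfatc1, Nfatc2 and Nfkb1 overlap the mark and those of Nfkb2 and Relb do not, while 10 to 12 marked regions at each of the first 3 genes hold no Runx3-bound region.

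A Runx3-bound region within 1 kb of the gene start was found at Nfkb2 and Nfkbia, 2 of the 10 genes, against 9.42% of protein-coding genes. H3K4me1 lay within 1 kb of the start of 3 genes, Nfatc1, Nfatc3 and Rel, against 8.26% of protein-coding genes. Counting every annotated start, 6 of the 18 Runx3-bound regions were centred under 1 kb from one (33.3%, interval 16.3 to 56.3%), against 26.3% of all Runx3-bound regions, and 3 of the 54 H3K4me1-marked regions were (5.56%, interval 1.91 to 15.1%), against 8.81%. Intronic centres by the same rule were found for 10 of the 18 Runx3-bound regions (55.6%, interval 33.7 to 75.4%), against 44.4%. The shares over all regions, 26.3%, 8.81% and 44.4%, each lay inside the interval for the regions of the 10 genes. The counts of genes with a region within 1 kb of the start were given no interval.

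RUNX motifs were found in the central 200 bp of 15 of the 18 regions (83.3%, interval 60.8 to 94.2%), against 78.7% of all Runx3-bound regions. The central 200 bp was the only one of 4 windows in which the share was above that of all regions. It was 38.9% against 54.2% in the central 100 bp, 88.9% against 90.4% in the central 400 bp and 88.9% against 92.6% over whole regions. The regions with none in the central 200 bp were Nfatc2 region 1, Nfatc3 region 1 and Relb region 1, and the last 2 held no such letters over their whole length. Nfkb1 region 1 held 7 RUNX motifs over its length. By variant, TGTGGT and TGTGGC were each found in 7 of 18 (38.9%, interval 20.3 to 61.4%), against 54.3% and 26.8% of all regions, both inside that interval. TGCGGT was in 3 of 18 (16.7%, interval 5.84 to 39.2%), against 13.7%. TGCGGC was in 4 of 18 (22.2%, interval 9.0 to 45.2%), against 8.41%, and of the 4 variants it alone had a background outside its interval. The lower bound of 9.0% lay close to 8.41%, and neither GC nor the number of motifs compared was allowed for. TGTGGT was in 7 of the 13 marked regions (53.8%, interval 29.1 to 76.8%) and in 0 of the 5 unmarked ones (upper bound 43.4%), and these intervals overlap. Over the whole list it was in 62.3% of marked and 43.5% of unmarked regions. The unmarked regions also had more GC, with a median of 66.0% and 22 CpG per central 200 bp, against 49.5% and 3 for the marked ones. Over all Runx3-bound regions the same medians were 53.5% and 5 unmarked and 49.0% and 2 marked. The unmarked Nfkb2 region 1, Nfkbia region 1 and Relb region 1 were centred under 1 kb from an annotated start. So were the marked Nfatc2 region 1 and Nfkb1 regions 3 and 4. Distance from a start was not allowed for in the TGTGGT, GC and CpG comparisons, and its part in them was not tested.

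Motifs of partner factors were counted in the same windows on both strands. ETS motifs (AGGAAA or AGGAAG, with A or C as the first base) were in 12 of 18 (66.7%, interval 43.7 to 83.7%), against 66.1%, and RUNX and ETS together were in 10 (55.6%, interval 33.7 to 75.4%), against 51.2%. The NFAT core GGAAA, which also lies inside 2 of the ETS forms, was in 7 (38.9%, interval 20.3 to 61.4%), against 52.8%. The AP-1 motif (TGACTCA or TGAGTCA) was in 0 of 18, with an upper bound of 17.6%, against 6.49%. The backgrounds of these 4 counts lay inside the intervals of the 18 regions.

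The kappaB consensus, the 10-base sequence bound by NF-kB dimers, was in the central 200 bp of 1 region, Nfkbia region 2, against 3.44% of all regions. Over whole regions it was found in 3 of 18, all at Nfkb2 and Nfkbia, against 8.47%. The whole-length count was added after the values were seen, with overlapping matches taken as 1 place. Nfkbia region 1 held 3 such places, and 5 of all 9135 Runx3-bound regions (0.0547%) held 3 or more. The cut at 3 was this region's own count, so the rarity follows from how it was chosen. The region is also wide, at 1026 bp, where 2.32% of all Runx3-bound regions reach 1000 bp. Neither width nor GC was allowed for in this count. The places in the 3 regions with a match are written here on the strand of the gene, with the matched bases in capitals and the first match of each overlapping pair shown.
Nfkb2, chr19:46379188-46379197, plus strand, 39 bp before the gene start: GGGAATTCCC
Nfkbia, chr12:56593654-56593663, minus strand, 29 bp before the gene start: GGAAATTCCC
Nfkbia, chr12:56592944-56592953, minus strand, 681 bp into the gene: GGAAAGTCCC
Nfkbia, chr12:56592780-56592789, minus strand, 845 bp into the gene: GGGGGTTTCC
Nfkbia region 2, chr12:56589818-56589827, minus strand, 3807 bp from the gene start: GGGACACCCC
The match before Nfkb2 and the one 845 bp into Nfkbia each overlapped another that began 1 base further on. The site in Nfkbia region 2 lay 73 bp from the RUNX motif capitalised in the sequence of that region above, whereas those of the start regions lay 231 to 396 bp from a RUNX motif. These matches are sequence only, and NF-kB binding was not measured in these libraries.

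**Figure D4:**
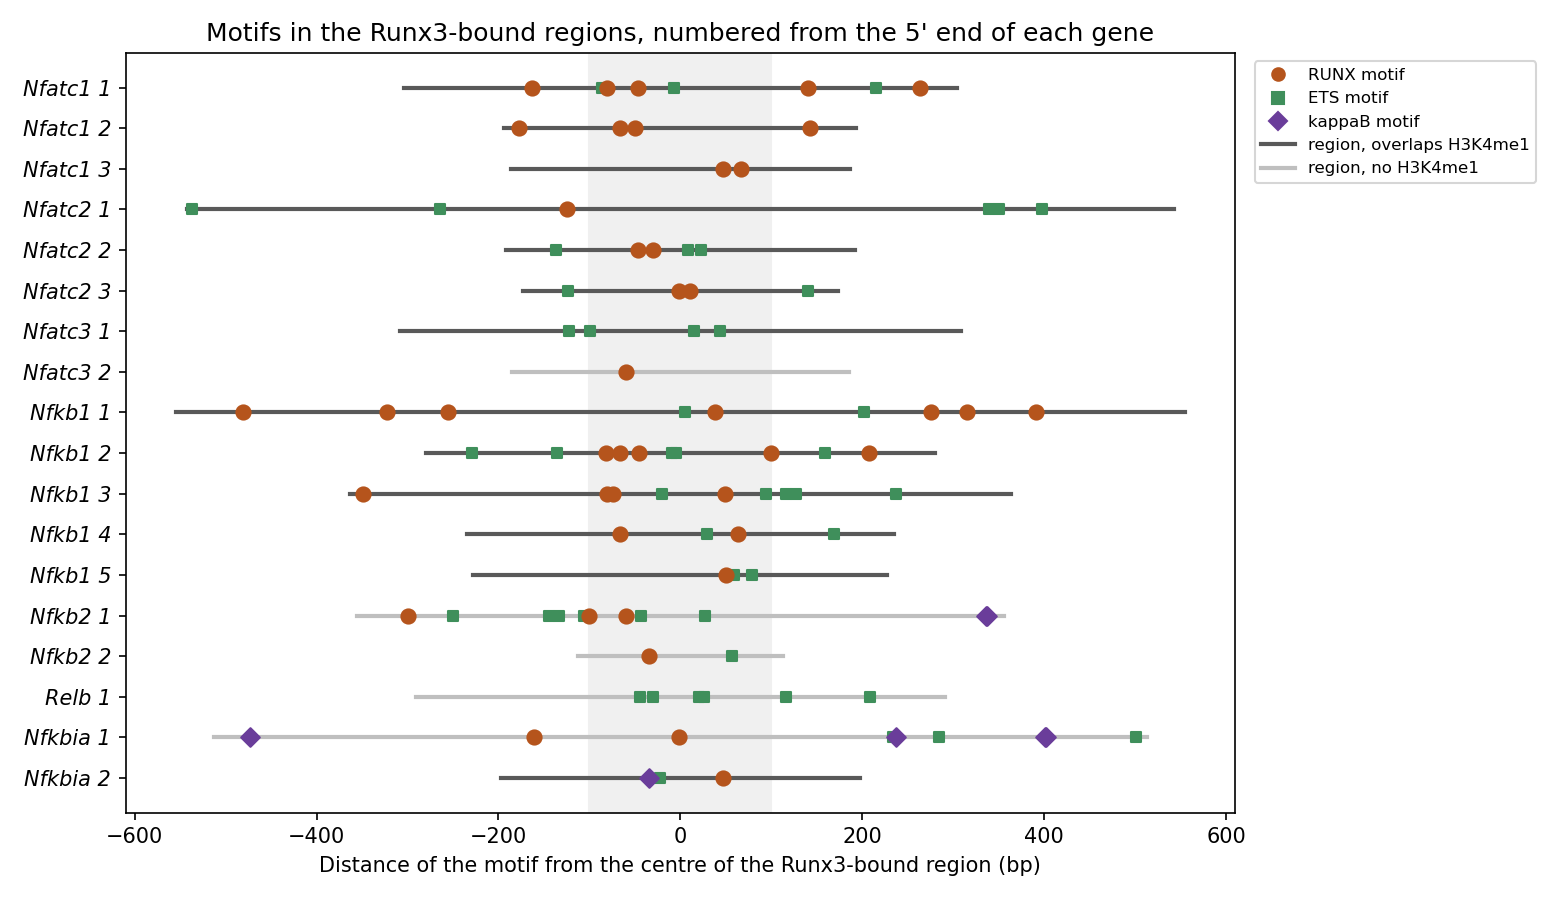
Positions of RUNX, ETS and kappaB motifs in each of the 18 Runx3-bound regions, in bp from the region centre with the gene's 5′ side on the left, and with the central 200 bp shaded. Dark lines are regions that overlap H3K4me1 and pale lines those that do not; kappaB motifs appear at Nfkb2 and Nfkbia, and 15 regions have a RUNX motif in the shaded part.

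The wider pathway was described from 49 further genes in 4 lists. Of these, 35 had a Runx3-bound region, 21 had one overlapping H3K4me1, 38 had H3K4me1 and 8 had neither. The shares of all protein-coding genes to read these and the following counts against are 34.2% for Runx3, 17.8% for H3K4me1-overlapping Runx3 and 39.3% for H3K4me1. Window length was not allowed for. The windows of the 49 genes ran from 44.1 kb at Sharpin to 308 kb at Ppp3ca, and the median window of all genes was 55.4 kb. Among the calcium, calcineurin and NFAT genes 11 of 15 had Runx3. Stim1, the calcium sensor of the endoplasmic reticulum, had 7 Runx3-bound regions and none overlapped H3K4me1, whereas Ppp3cc, a catalytic subunit of calcineurin, had 3 that all did. Of NF-kB inhibitors and cofactors 6 of 7 had Runx3, including Nfkbie with 3 regions and Bcl3 with 2.

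Among IKK complex genes and upstream kinases and adaptors, 10 of 16 had Runx3. Prkcq, the kinase that links the T cell receptor to this pathway, had 5 Runx3-bound and 20 H3K4me1-marked regions, and Traf1, a signalling adaptor, had 5 and 10, with H3K4me1 over 43.2% of its window. The adaptor gene Bcl10 had 4 and 5. Tab1, Traf6, Ripk1 and Ikbkg had neither. Of ubiquitin-editing genes 8 of 11 had Runx3, with 3 regions at the ligase gene Birc3, and 10 of 11 had H3K4me1, with 8 regions at Tnip1, whose product binds that of Tnfaip3.

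Marker genes of the cell types were read against the same shares. All 8 T cell markers, Cd3d, Cd3e, Cd3g, Cd247, Cd8a, Cd8b1, Thy1 and Lck, had both Runx3-bound and H3K4me1-marked regions, against 34.2% and 39.3% of all genes. Some of these genes are neighbours with shared windows, so the 23 Runx3 and 58 H3K4me1 counts come from 18 and 45 separate regions. Of 6 B cell markers 2 had Runx3 and 3 had H3K4me1, of 5 macrophage and dendritic cell markers 2 and 3 did, and the NK marker Ncr1 had neither. The 2 macrophage and dendritic cell genes with Runx3, the neighbours Itgam and Itgax, shared 1 region.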

How the data were processed

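Per the labels and the study's methods, chromatin was sheared to about 300 bp and the authors aligned reads to mm9 with ELAND. Unique reads were kept and repeats joined, and MACS called peaks over the NIS control after the larger read set was scaled to the smaller. The authors deposited 2 lists of start and end positions in bp, with 0 score columns. Joining repeats hides the spread between them, and depth was not analysed here. The labels give 1 H3K4me1 library while the protocol speaks of repeats for both antibodies.

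The genome and gene models were NCBIM37 (mm9) and GENCODE vM1, and coordinates count from 1. Overlap meant at least 1 bp. All 10 genes and every region in their windows were used. Coordinates are given for the region nearest the gene start, the widest region and the regions of genes with few. The lists were calcium, calcineurin and NFAT; NF-kB inhibitors and cofactors; IKK complex and upstream kinases and adaptors; ubiquitin editing; and cell type markers. Members, lists and motifs were chosen with earlier results of these data known. Motifs were searched in the central 200 bp on both strands. The tools were pysam 0.24.0, SciPy 1.17.1, pandas 2.3.3, NumPy 2.4.6 and matplotlib 3.10.9 under Python 3.11.15. The functions for overlaps, covered bases, motif positions and merging were tested on simulated data. Alternatives were other windows, overlap rules, widths, merging and motif windows.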

Additional observations from a re-analysis of the deposited data

How the results depend on the processing

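No paired analysis was possible because each antibody has 1 list called on joined reads, and leaving out a replicate could not be run for the same reason. Of 43 alternatives for values over all 10 genes, 39 stayed within 1.5 times of a count or inside the interval of a share. The 18 Runx3-bound regions became 11 with no extension of the gene body and 9 when only regions at least as wide as the list median were kept. The 54 H3K4me1-marked regions became 35 when regions closer than 1 kb were merged. The share of Runx3-bound regions that overlapped H3K4me1 ranged from 50%, with the region centre inside the mark, to 81.8%, with no extension of the gene body. The 57.3% of all Runx3-bound regions was counted at 1 bp of overlap and is not the background of the 50%. The RUNX motif share fell from 83.3% to 38.9% in the central 100 bp, against 54.2% of all Runx3-bound regions. It was 88.9% in the central 400 bp and over whole regions, against 90.4% and 92.6%, so that the order against all regions turned in each of these windows. The share of protein-coding genes with a Runx3-bound region was 18% with no extension, 23.5% at 5 kb, 27.5% at 10 kb, 47.9% at 50 kb and 35.3% over autosomal genes. Of the 10 genes, 5 had one with no extension, 7 at 5 kb, 7 at 10 kb and 8 at 50 kb. Of 40 counts per gene, 32 stayed within 1.5 times. These include counts that stayed at 0, for Rel and Rela at every extension and for Tnfaip3 at all but 50 kb. With no extension Nfatc3 and Relb had 0 Runx3-bound regions and Nfkb2 and Nfkbia had 1, while at 50 kb Relb had 3 and Tnfaip3 had 2. Nfatc3 had 1 at 5 and 10 kb. Counting kappaB over whole regions, added after the data were seen, gave 16.7% of the 18 regions, where the central 200 bp had given 5.56%. The same shares of all Runx3-bound regions were 8.47% over whole regions and 3.44% in the central 200 bp. The number of called regions depends on read depth, which limits all counts.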

Other observations

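RUNX motifs were also counted in the H3K4me1-marked regions of the 10 genes, on both strands. The 15 that held a Runx3-bound region had 2.68 RUNX motifs per kb, and the 39 that held none had 1.98 per kb. Over the whole H3K4me1 list the same values were 2.36 and 2.11 per kb. At least 1 RUNX motif was present in 37 of the 39 regions without a Runx3 call (94.9%), against 93.8% of such regions in the whole list. Nearly all regions of this width hold the letters, so this share cannot tell the 2 kinds apart.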
